A study of Homo sapiens with 12 samples.

Results

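Mammalian cells keep apoptosis in check with a small set of survival genes, and 9 of them were followed here among the 32077 genes of the count table. The set was fixed by name. BCL2, BCL2L1, BCL2L2, MCL1 and BCL2A1 are 5 antiapoptotic members of the BCL2 family. XIAP, BIRC2, BIRC3 and BIRC6 are 4 inhibitors of apoptosis proteins (IAPs). All 9 were found in the table and all 9 had enough counts to be tested. RNA-seq was carried out on cultures labelled PC3 and DU145, established androgen-independent human prostate cancer cell lines given as wild type in the labels. Cultures were kept for 48 hours with vehicle or with 2.5 μmol/L pentamidine, an aromatic diamidine used against parasites. The 4 groups were vehicle-treated PC3, pentamidine-treated PC3, vehicle-treated DU145 and pentamidine-treated DU145, with 3 libraries each and 12 in all. Each line is 1 established line grown in culture, and nothing in the labels says whether the 3 libraries of a group came from separate cultures, so the p-values measure the spread between these libraries, which may be technical.

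The mitochondrial route to apoptosis opens when BAX or BAK1 form pores in the outer mitochondrial membrane and cytochrome c is released. BCL2, BCL-XL (encoded by BCL2L1), BCL-w (BCL2L2), MCL1 and BFL1 (BCL2A1) hold BAX and BAK1 and their BH3-only activators in check. MCL1 is a protein with rapid turnover, and BCL2A1 is a well-known NF-κB target gene. Downstream, cytochrome c and APAF1 activate CASP9 and then further caspases, and XIAP binds and inhibits caspases directly. BIRC2 (cIAP1) and BIRC3 (cIAP2) are ubiquitin ligases of the TNF receptor complexes that keep the kinase MAP3K14 (NIK) low, and BIRC3 is itself induced by NF-κB. BIRC6 is a very large ubiquitin-conjugating enzyme that targets caspases and the IAP antagonist DIABLO.

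Each library held between 13514195 and 15131436 counts. Cell identity was checked first, because some markers differed from what the labels would give. EPCAM had 0 to 2 counts per library, CDH1 0 to 10 and KRT19 0 to 3, so 3 of 5 epithelial markers were at or near 0 in all 12 libraries, whereas KRT8 was at 20.2 ± 1.51 CPM (counts scaled to a common library size; mean ± SD, n = 3) in vehicle-treated PC3-labelled cells and at 2710 ± 89.4 in vehicle-treated DU145-labelled cells. KRT18 was expressed under both labels, at 155 ± 14.2 and 915 ± 23.7 CPM. The luminal prostate markers KLK2 and KLK3 had 0 to 3 counts per library. The paper describes both lines as lacking prostate-specific antigen, the product of KLK3, so the KLK3 counts do not go against the labels. CTNNA1, known to be lost in the PC3 line and added to the check after its values were seen, had at least 6003 counts in each PC3-labelled library and was at 436 ± 5.90 CPM in their vehicle group, against 412 ± 12.2 in the DU145-labelled one. The identity of the cells therefore cannot be taken from the names alone, and the groups are called PC3-labelled and DU145-labelled below. PTPRC, which marks leukocytes, had 0 or 1 count. The summed level of 5 fibroblast markers lay between 0.473 and 3.21 CPM in every library, that of 4 immune markers between 0.0715 and 0.648, and that of 3 endothelial markers between 0.0712 and 1.15. Pentamidine moved the share of counts on the 13 mitochondria-encoded mRNAs from 3.42% to 0.248% in the PC3-labelled groups and from 3.93% to 0.209% in the DU145-labelled groups, and the tests below were also run with these mRNAs left out of the library size.

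The members are spread over 8 chromosomes, with a single pair of neighbours. BIRC3 (chromosome 11, 102317450 to 102339403, plus strand, GRCh38) and BIRC2 (102347211 to 102378670, plus strand) are paralogs separated by 7807 bases. MCL1 lies on chromosome 1 (150574551 to 150579738, minus strand), BCL2A1 on chromosome 15 (79960889 to 79971446, minus strand), BCL2L1 on chromosome 20 (31664452 to 31723989, minus strand), BCL2 on chromosome 18 (63123346 to 63320128, minus strand), BCL2L2 on chromosome 14 (23298790 to 23311759, plus strand), BIRC6 on chromosome 2 (32357028 to 32618899, plus strand) and XIAP on the X chromosome (123859724 to 123913979, plus strand). BCL2L2-PABPN1, the readthrough transcript of BCL2L2, had 1 to 8 counts per library. Counts were made per gene, so the long and short forms of BCL2L1 and of MCL1, which have opposite effects on survival, cannot be told apart. How reads shared by BIRC2 and BIRC3 were counted is not given in the sources used here.

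RefSeq promoters on GRCh38.p14, each from 250 bases before to 50 bases after the transcription start, were matched for 7 of the 9 members. MCL1 and BCL2L2 had none. Some members had several starts, so these 7 had 12 windows. BIRC3 and BCL2A1, the members that fell most, are shown. Capitals mark matches to the κB motif, the site bound by NF-κB, in BIRC3, and the match to TGATGNAA, a motif of C/EBP-ATF sites, in BCL2A1.
BIRC3, chr11:102317234-102317533, plus strand: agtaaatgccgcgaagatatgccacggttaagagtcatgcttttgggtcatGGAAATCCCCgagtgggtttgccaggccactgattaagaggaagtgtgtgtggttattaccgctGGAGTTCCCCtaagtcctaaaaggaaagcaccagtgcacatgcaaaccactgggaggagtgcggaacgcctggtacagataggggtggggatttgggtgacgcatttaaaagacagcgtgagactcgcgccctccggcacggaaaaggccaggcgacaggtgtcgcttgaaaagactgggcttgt
BCL2A1, chr15:79971147-79971446, minus strand: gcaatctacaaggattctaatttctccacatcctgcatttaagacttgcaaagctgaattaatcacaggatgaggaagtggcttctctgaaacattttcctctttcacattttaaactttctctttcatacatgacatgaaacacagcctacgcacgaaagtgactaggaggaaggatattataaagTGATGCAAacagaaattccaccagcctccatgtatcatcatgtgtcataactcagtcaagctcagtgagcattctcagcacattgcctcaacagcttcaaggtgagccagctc
Both strands were searched. The BIRC3 window held 2 κB matches, whose first bases lie 199 and 135 bases before the start, both read on the strand opposite to the gene. A κB match was also found 215 bases before a start of BIRC6, where it reads on both strands, and the other 5 matched members held none. Of 35116 promoters of this length, 11.3% held a κB match, a share by window and not by gene. The BCL2A1 window held TGATGNAA once, 63 bases before the start, and 3.62% of promoters held it. No match to one motif overlapped a match to another. TGANTCA, the AP-1 motif, was in 7.71% of promoters and in 0 of the 12 windows of the 7 matched members. These matches describe the letters of the windows and show no binding.

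In the vehicle groups, the PC3-labelled and DU145-labelled cells differed in the levels of most of the 9 survival transcripts. BCL2L1, BCL2 and XIAP were higher in PC3-labelled cells, whereas BCL2A1, BIRC3, BIRC2, BIRC6 and MCL1 were higher in DU145-labelled cells, and BCL2L2 did not separate them. Thus 8 of the 9 members passed the test at an adjusted p below 0.05, 3 higher and 5 lower in PC3-labelled cells, where 65.3% of all genes tested passed, 31.5% higher and 33.8% lower. The groups did not overlap for 8 of 9 members, against 69.1% of all genes. These shares among the members were read against a background in which most genes differed between the labels.

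The largest difference between the vehicle groups was in BCL2A1. It was at 2.26 ± 1.05 CPM in PC3-labelled against 16.5 ± 0.490 in DU145-labelled cells (log2 difference -2.88 ± 0.20, SE, adjusted p = 2.1e-09). BIRC3 followed, at 146 ± 17.5 against 411 ± 17.2 CPM (-1.52 ± 0.07, adjusted p = 1.1e-11), and BIRC2 was at 149 ± 12.4 against 225 ± 6.77 CPM (-0.61 ± 0.06, adjusted p = 8.9e-08). In the other direction, BCL2L1 was at 136 ± 13.2 against 70.6 ± 1.77 CPM (0.92 ± 0.07, adjusted p = 5.3e-09). BCL2, the founding member of the family, was at 26.4 ± 1.69 against 15.6 ± 1.34 CPM (0.73 ± 0.09, adjusted p = 3.7e-06), and XIAP at 84.1 ± 8.82 against 58.2 ± 5.33 CPM (0.51 ± 0.08, adjusted p = 3.2e-05). Smaller differences were measured for MCL1 (-0.31, adjusted p = 1.3e-05) and BIRC6 (-0.33, adjusted p = 3.8e-05). BCL2L2 was at 27.7 ± 1.37 and 27.4 ± 4.24 CPM, a log2 difference of -0.01 with a 95% interval from -0.22 to 0.20 (adjusted p = 0.941).

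Levels can be set against each other between genes only per length, as CPM per kb of exon (CPM/kb). By this measure MCL1 ranked first in all 4 groups, at 95.3 ± 4.81 CPM/kb in vehicle-treated PC3-labelled cells and 116 ± 2.07 in vehicle-treated DU145-labelled cells. In vehicle-treated PC3-labelled cells BCL2L1 (41.0 ± 3.98), BIRC2 (32.9 ± 2.73) and BIRC3 (19.4 ± 2.33) followed, whereas in vehicle-treated DU145-labelled cells the order was BIRC3 (54.7 ± 2.28), BIRC2 (49.5 ± 1.49) and BCL2L1 (21.3 ± 0.534). BCL2 itself was among the lowest, at 2.24 ± 0.144 and 1.33 ± 0.114 CPM/kb. Neighbours whose libraries overlapped were BIRC6 and XIAP, and BCL2 and BCL2A1, in the PC3-labelled vehicle group, and BCL2L2 and XIAP in the DU145-labelled vehicle group. All other neighbours were separated in these groups.

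**Figure D1:**
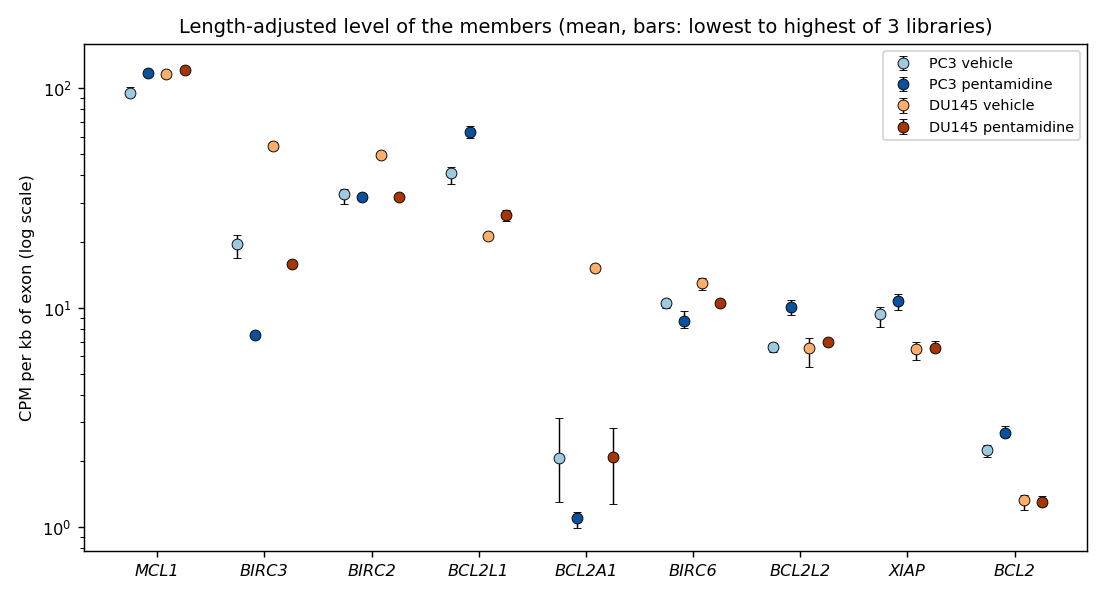
Length-adjusted level of the 9 members in CPM per kb of exon (y axis, log scale), ordered on the x axis by their level in vehicle-treated DU145-labelled cells; points are group means and bars run from the lowest to the highest of 3 libraries. MCL1 stands highest in all 4 groups, and BIRC3 falls down the order after pentamidine under both labels, whereas BCL2A1 does so in DU145-labelled cells and is last in both PC3-labelled groups.

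To see how pentamidine moved these genes, each labelled line was compared with its own vehicle group. In PC3-labelled cells the survival genes split: 5 rose (BCL2L1, BCL2L2, MCL1, BCL2 and XIAP) and 3 fell (BIRC3, BCL2A1 and BIRC6), while BIRC2 did not pass. In DU145-labelled cells only BCL2L1 among the 9 rose, and 4 fell (BCL2A1, BIRC3, BIRC2 and BIRC6). BIRC3 was past a 2-fold fall (an absolute log2 fold change above 1) in both labelled lines, and BCL2A1 in DU145-labelled cells. The plot of CPM by library shows all 9.

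**Figure D2:**
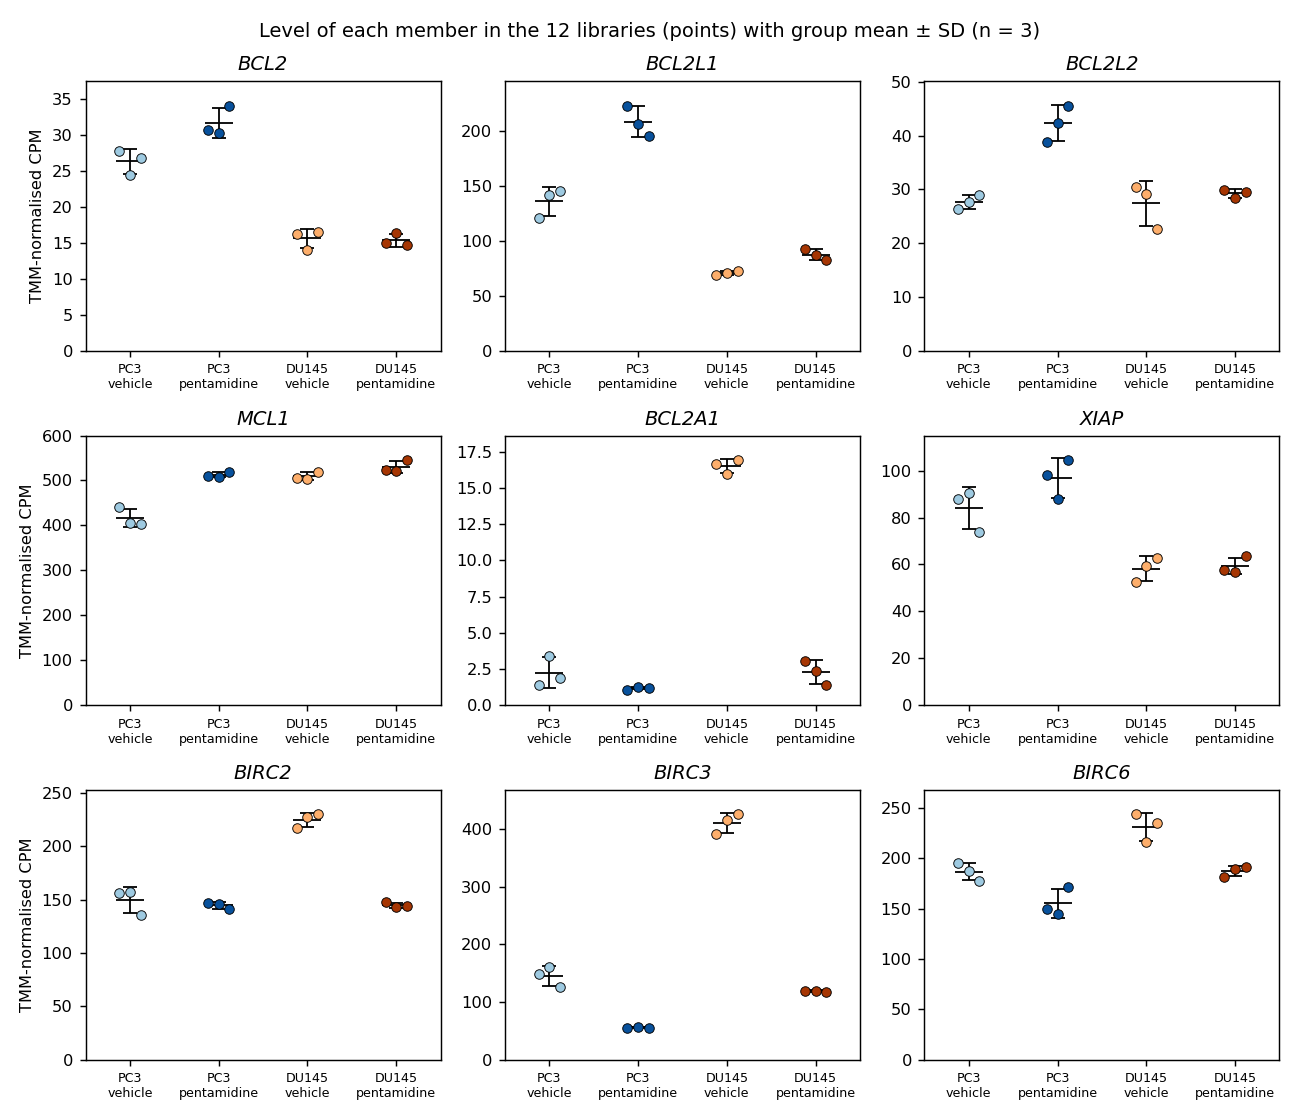
TMM-normalised CPM of each member (y axis, linear, from 0) in the 4 groups; points are libraries, bars are mean ± SD (n = 3). The DU145-labelled vehicle libraries of BIRC3 sit between 392 and 425 CPM and those with pentamidine between 118 and 120.0, and BCL2A1 lies between 15.98 and 16.9 CPM with vehicle and between 1.39 and 3.07 with pentamidine.

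BIRC3 fell in every pentamidine library of both labelled lines. In PC3-labelled cells it was at 149.5, 161 and 127 CPM with vehicle and at 55.5, 57.4 and 55.9 CPM with pentamidine, so that the highest treated library lay far under the lowest vehicle one. In DU145-labelled cells it went from 392, 416 and 425 CPM to 119.7, 120.0 and 118 CPM, again with no overlap. The log2 fold changes were -1.37 ± 0.07 (SE, adjusted p = 1.6e-10), a 2.58-fold fall, and -1.78 ± 0.04 (adjusted p = 2.1e-41), a 3.44-fold fall. The pentamidine-treated DU145-labelled libraries lay just under the lowest vehicle-treated PC3-labelled one. Per length, BIRC3 moved from rank 4 to rank 7 of the 9 members in the PC3-labelled groups and from rank 2 to rank 4 in the DU145-labelled groups.

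BIRC2, the neighbouring paralog, behaved differently in the labelled lines. Its levels in PC3-labelled cells were 156, 157 and 135 CPM with vehicle and 147, 145 and 141 CPM with pentamidine. These groups overlapped, and the log2 fold change was -0.04 with a 95% interval from -0.17 to 0.08 (adjusted p = 0.596). In DU145-labelled cells BIRC2 went from 217, 227 and 229.6 CPM to 147, 143 and 143 CPM, without overlap (log2 fold change -0.63 ± 0.04, adjusted p = 1.4e-20, a 1.55-fold fall). With pentamidine the mean was 145 CPM under both labels.

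BIRC6 fell modestly in both. In PC3-labelled cells it was at 195, 187 and 178 CPM with vehicle against 149, 145 and 172 CPM with pentamidine (log2 fold change -0.26 ± 0.06, adjusted p = 0.00256). Values in DU145-labelled cells were 243, 216 and 235 CPM with vehicle against 182, 189.9 and 191 CPM (-0.30 ± 0.04, adjusted p = 7.1e-09). The groups did not overlap in either, although pentamidine replicate 3 of the PC3-labelled cells lay close to its vehicle group.

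XIAP, the caspase inhibitor, showed the weakest change among the members that passed. With vehicle it was at 88.0, 90.4 and 74.0 CPM in PC3-labelled cells and with pentamidine at 98.1, 87.8 and 105 CPM. The groups overlapped, and the log2 fold change of 0.21 ± 0.08 (adjusted p = 0.0364) no longer passed with scaling by library size alone (adjusted p = 0.0665) or by library size without mitochondrial mRNAs (0.162), with the replicate number as a block (0.0588), nor without vehicle replicate 3 (0.12, adjusted p = 0.177), pentamidine replicate 1 (0.110) or pentamidine replicate 3 (0.187). DU145-labelled cells had 52.4, 59.5 and 62.8 CPM against 57.8, 56.9 and 63.4 CPM, overlapping groups with a log2 fold change of 0.03 (95% interval -0.09 to 0.15, adjusted p = 0.729).

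Among the BCL2 family, BCL2A1 fell most. In DU145-labelled cells it had 223, 228 and 246 counts with vehicle (16.6, 15.98 and 16.9 CPM) and 43, 35 and 20 counts with pentamidine (3.07, 2.38 and 1.39 CPM). No treated library came near the vehicle group, and the log2 fold change was -2.85 ± 0.16 (adjusted p = 2.1e-21), a 7.21-fold fall. In PC3-labelled cells the gene was already low, at 21, 53 and 26 counts with vehicle (1.42, 3.43 and 1.92 CPM) against 16, 18 and 18 counts with pentamidine (1.08, 1.28 and 1.22 CPM). The groups did not overlap, but vehicle replicate 2 stood apart from the other two and carried much of the difference. The log2 fold change of -0.92 ± 0.34 (adjusted p = 0.0347) became -0.48 without that library (adjusted p = 0.294), and it did not pass with DESeq2 (adjusted p = 0.0629), with limma (0.0535) or without any single pentamidine library (0.108, 0.0691 and 0.0821 for replicates 1, 2 and 3).

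BCL2L1 rose in both. In PC3-labelled cells it went from 121, 141 and 145 CPM to 223, 206 and 196 CPM, and in DU145-labelled cells from 68.9, 70.3 and 72.4 CPM to 92.5, 86.9 and 82.4 CPM. Every pentamidine library was above every vehicle library of its line. The log2 fold changes were 0.62 ± 0.07 (adjusted p = 1.5e-06), a 1.54-fold rise, and 0.31 ± 0.05 (adjusted p = 8.6e-07), a 1.24-fold rise.

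BCL2L2 rose by a like amount in PC3-labelled cells, from 26.3, 27.7 and 29.1 CPM to 38.9, 42.3 and 45.6 CPM, without overlap (0.62 ± 0.08, adjusted p = 7.4e-06). In DU145-labelled cells it was at 30.5, 29.2 and 22.6 CPM against 30.0, 28.3 and 29.5 CPM. Vehicle replicate 3 was the low library there, the groups overlapped, and the log2 fold change was 0.10 (95% interval -0.06 to 0.26, adjusted p = 0.355).

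MCL1, the most abundant member, was at 441, 406 and 403 CPM with vehicle and 510.1, 509 and 519.9 CPM with pentamidine in PC3-labelled cells. The treated libraries were all higher, with a log2 fold change of 0.30 ± 0.05 (adjusted p = 6.1e-05), a 1.24-fold rise. In DU145-labelled cells it was at 505, 503 and 519.5 CPM with vehicle and 523, 522 and 546 CPM with pentamidine. These groups did not overlap either, but the log2 fold change was 0.06 ± 0.03 (adjusted p = 0.111) and passed only with scaling by library size alone (0.11, adjusted p = 0.0032).

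BCL2 was at 27.8, 24.5 and 26.8 CPM with vehicle and 30.7, 30.3 and 34.1 CPM with pentamidine in PC3-labelled cells (0.27 ± 0.08, adjusted p = 0.0111). The groups did not overlap, yet the gene did not pass without vehicle replicate 2 (adjusted p = 0.0665) or without pentamidine replicate 3 (0.0682). Its levels in DU145-labelled cells were 16.3, 14.1 and 16.5 CPM against 15.0, 16.4 and 14.7 CPM, with overlap (-0.02, 95% interval -0.22 to 0.18, adjusted p = 0.917).

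**Figure D3:**
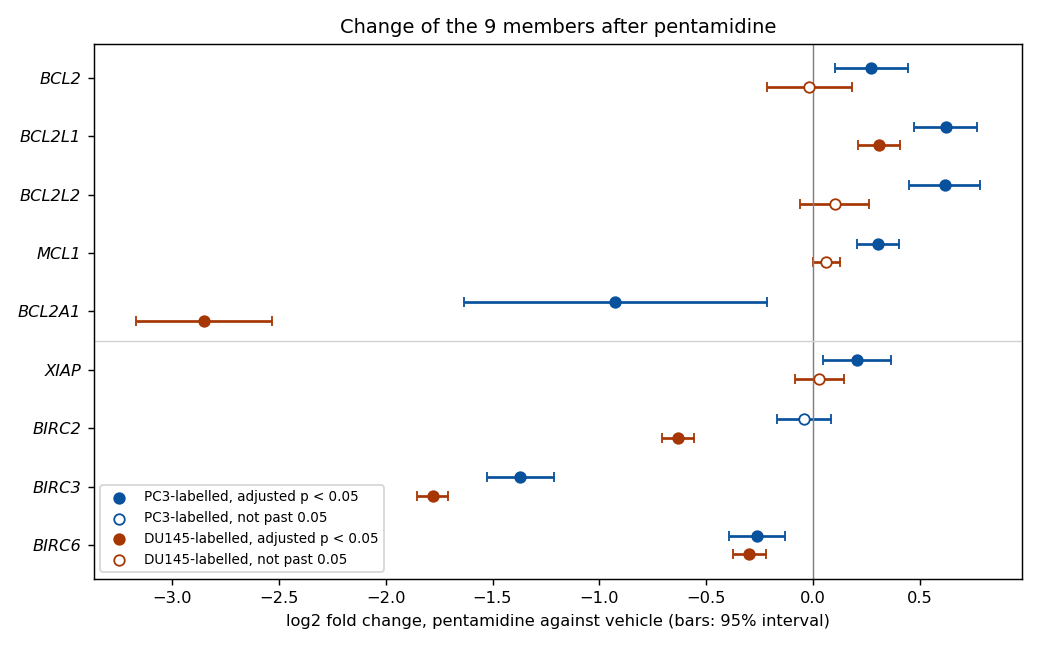
Log2 fold change of each member with pentamidine against vehicle (x axis) in PC3-labelled (blue) and DU145-labelled (brown) cells; bars are 95% intervals, filled points had an adjusted p below 0.05, and the grey line parts the BCL2 family (above) from the IAPs. BIRC3 lies at -1.37 and -1.78, BCL2A1 at -0.92 and -2.85, and BCL2L1 at 0.62 and 0.31.

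Counted together, 8 of the 9 members passed in PC3-labelled cells, 5 higher and 3 lower, where 43.4% of all genes tested passed, 21.7% higher and 21.7% lower. In DU145-labelled cells 5 of 9 passed, 1 higher and 4 lower, where 34% of all genes passed, 17.2% higher and 16.8% lower. With the fold threshold as well, 1 member was called in PC3-labelled cells and 2 in DU145-labelled cells, against 4.75% and 2.03% of all genes. Groups did not overlap for 7 of 9 members in PC3-labelled cells and for 6 of 9 in DU145-labelled cells, against 52.1% and 44% of all genes. The median log2 fold change of the 9 was 0.21 and -0.02, and that of all genes tested was 0.0046 and 0.0085. The count in PC3-labelled cells included 3 members with an adjusted p above 0.01, BCL2, BCL2A1 and XIAP, and dropped to 5 without pentamidine replicate 3. For the members, scaling by library size without mitochondrial mRNAs, which also leaves out TMM, changed the call of XIAP alone. XIAP lost its call with library size alone as well, so the part of the mitochondrial mRNAs cannot be told apart. RNA was taken from whole cultures, so fewer cells carrying a transcript and less transcript per cell cannot be told apart.

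Whether the genes moved differently under the 2 labels was tested in a model of all 12 libraries, as the change in DU145-labelled minus the change in PC3-labelled cells. The difference passed for 6 of 9 members, 0 higher and 6 lower, where 20.4% of all genes passed, 10.3% higher and 10.2% lower. BCL2A1 differed most (-1.92 ± 0.40, adjusted p = 7.6e-04), followed by BIRC2 (-0.59 ± 0.07, adjusted p = 3.8e-07). BIRC3 fell further in DU145-labelled cells (-0.41 ± 0.08, adjusted p = 7.5e-04). For 3 of the genes that rose in PC3-labelled cells, the log2 fold change was lower in DU145-labelled cells, where BCL2L2 and MCL1 had not passed: BCL2L2 (-0.52 ± 0.13, adjusted p = 0.0034), BCL2L1 (-0.31 ± 0.09, adjusted p = 0.0107) and MCL1 (-0.24 ± 0.06, adjusted p = 0.0023). A difference was not established for BCL2 (-0.29, 95% interval -0.55 to -0.03, adjusted p = 0.108), XIAP (-0.17, -0.39 to 0.04, adjusted p = 0.277) or BIRC6 (-0.04, -0.20 to 0.12, adjusted p = 0.803). In the vehicle groups, BCL2A1, BIRC3, BIRC2 and MCL1 stood higher in DU145-labelled cells. BIRC6 did as well, although a difference in its change was not established. BCL2L1, BCL2 and XIAP stood lower there, and BCL2L2 did not separate the groups. A link between the vehicle level and the change was not tested.

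Summed per length, the 5 BCL2 family members went from 147 ± 0.169 to 194 ± 2.42 CPM/kb in PC3-labelled cells and from 161 ± 2.06 to 158 ± 1.76 in DU145-labelled cells. The 4 IAPs went from 72.1 ± 6.37 to 58.8 ± 1.14 CPM/kb and from 124 ± 3.97 to 64.9 ± 0.366. These sums are a description, with no test, and they weigh transcripts and not proteins. MCL1 made up 64.7% ± 3.25 of the BCL2 family sum in vehicle-treated PC3-labelled cells and 60.5% ± 1.20 with pentamidine, and 72.4% ± 0.407 and 76.8% ± 1.52 in DU145-labelled cells. The share of BCL2A1 in DU145-labelled cells went from 9.43% ± 0.176 to 1.33% ± 0.492. Within the IAP sum BIRC3 went from 26.9% ± 1.03 to 12.7% ± 0.467 and from 44.2% ± 0.488 to 24.5% ± 0.319, and BIRC2 became the largest part in DU145-labelled cells, at 49.2% ± 0.720 from 40.1% ± 0.300.

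The genes that work with these members were then read by role. Of the other family members, BIRC5 (survivin, which acts mainly in mitosis) fell in PC3-labelled cells (-0.55 ± 0.08, adjusted p = 4.1e-05), and BCL2L12 fell in both (-0.37, adjusted p = 0.00159, and -0.15, adjusted p = 0.0133, the latter lost without pentamidine replicate 2 at 0.107, with scaling by library size alone at 0.114 and with all 12 libraries in one fit at 0.0716). BCL2L10, BIRC7 and NAIP had between 0 and 16 counts per library and were not tested within the labelled lines. Among the effectors and BH3-only genes, which the antiapoptotic members oppose, 3 of 8 tested passed in PC3-labelled cells, 2 higher and 1 lower, and 6 of 10 in DU145-labelled cells, 4 higher and 2 lower, where 43.4% and 34% of all genes passed. BBC3 (PUMA) rose in both (1.52 ± 0.16, adjusted p = 6.9e-07, and 1.77 ± 0.20, adjusted p = 2.2e-10), from 39 to 56 counts per vehicle library to 128 to 153 in PC3-labelled cells and from 18 to 35 to 95 to 112 in DU145-labelled cells. PMAIP1 (NOXA), which binds MCL1 and BCL2A1 selectively, also rose in both (0.78 ± 0.06, adjusted p = 1.2e-08, and 0.33 ± 0.06, adjusted p = 3.1e-05). HRK had 5 to 6 counts per vehicle library of DU145-labelled cells, under the minimum of 10, and 20 to 44 with pentamidine. It entered that test only through its treated libraries. Its log2 fold change (2.46 ± 0.39, adjusted p = 1.0e-06) therefore depends on the filter and is no separate support for a rise, although HRK is among the 6 of 10 counted above. In PC3-labelled cells HRK had 0 to 2 and then 8 to 20 counts, too few to be tested there. BID fell in both (-0.31, adjusted p = 0.00618, and -0.25, adjusted p = 0.00670, the latter lost without pentamidine replicate 3 at 0.160) and BAK1 in DU145-labelled cells (-0.22, adjusted p = 0.00703).

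Of the caspase axis and the IAP antagonists, 5 of 9 tested genes passed under each label, 1 higher and 4 lower, where 43.4% of all genes passed in PC3-labelled cells (21.7% higher, 21.7% lower) and 34% in DU145-labelled cells (17.2% higher, 16.8% lower). CASP9, the initiator that XIAP inhibits, was the one that rose (0.36 ± 0.08, adjusted p = 0.00186, and 0.48 ± 0.13, adjusted p = 0.00258). In PC3-labelled cells the lowest were APAF1 (-0.51 ± 0.07, adjusted p = 2.6e-05) and CASP6 (-0.42 ± 0.14, adjusted p = 0.0277). The call of CASP6 was lost without vehicle replicate 2 (adjusted p = 0.0943) or 3 (-0.29, 0.129) and without pentamidine replicate 1 (0.128) or 3 (0.0538).

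Of 9 partners of the cIAPs, 6 passed in PC3-labelled cells, 3 higher and 3 lower, and 5 in DU145-labelled cells, 3 higher and 2 lower, against 43.4% and 34% of all genes. RBCK1 (HOIL-1), a subunit of the linear ubiquitin ligase recruited through cIAPs, rose in both (1.55 ± 0.05, adjusted p = 1.0e-13, and 0.92 ± 0.04, adjusted p = 2.4e-27). TRAF2, the adaptor that binds BIRC2 and BIRC3, fell in both (-0.34, adjusted p = 0.00277, and -0.23, adjusted p = 0.00303). MAP3K14, whose protein the cIAPs degrade, fell in PC3-labelled cells (-0.45 ± 0.09, adjusted p = 3.7e-04) and rose in DU145-labelled cells (0.21 ± 0.05, adjusted p = 4.7e-04), and the difference passed as well (0.66 ± 0.10, adjusted p = 9.2e-06). TRAF1 rose in PC3-labelled cells (0.48 ± 0.13, adjusted p = 0.00667) and was at -0.02 in DU145-labelled cells (adjusted p = 0.956). For TRAF1 a difference between the labels was not established (-0.50 ± 0.23, adjusted p = 0.142). TRAF3 fell under both labels (-0.16, adjusted p = 0.0325, and -0.31, adjusted p = 2.0e-08), and SHARPIN, another subunit of the linear ubiquitin ligase, rose under both (0.21, adjusted p = 0.0446, and 0.24, adjusted p = 0.00300). Both calls in PC3-labelled cells were lost with DESeq2 (adjusted p = 0.0586 and 0.0892), and that of SHARPIN in DU145-labelled cells without pentamidine replicate 1 (0.0634).

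The list of NF-κB subunits and feedback genes held NFKBIA, NFKBIE, TNFAIP3, TNIP1, NFKB1, NFKB2, REL, RELB and BCL3. RELA was not in it. The genes of this list that passed all fell. The list was chosen with earlier results of these data known, so its direction is no independent evidence, and a shared cause with the members was not tested. Of 9 such genes, 5 passed in PC3-labelled cells, 0 higher and 5 lower, with a list median of -0.22, and 7 passed in DU145-labelled cells, 0 higher and 7 lower, with a median of -0.63. Of all genes, 21.7% passed higher and 21.7% lower in PC3-labelled cells and 17.2% and 16.8% in DU145-labelled cells, with medians of 0.0046 and 0.0085. NFKBIA, the inhibitor IκBα, fell in both (-0.81 ± 0.07, adjusted p = 5.8e-08, and -1.62 ± 0.04, adjusted p = 1.7e-37). REL fell most after it in PC3-labelled cells (-0.62 ± 0.13, adjusted p = 8.8e-04), and TNFAIP3 (A20) fell most in DU145-labelled cells (-1.89 ± 0.09, adjusted p = 2.0e-25). The 4 genes of MCL1 turnover (HUWE1, FBXW7, BTRC and USP9X) gave 0 adjusted calls by edgeR's quasi-likelihood test, DESeq2 or limma under either label. At an unadjusted p below 0.05, edgeR's test gave 1 of them in PC3-labelled and 1 in DU145-labelled cells, limma 1 and 1, and DESeq2 0 and 1. The lists were not tested as sets.

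**Figure D4:**
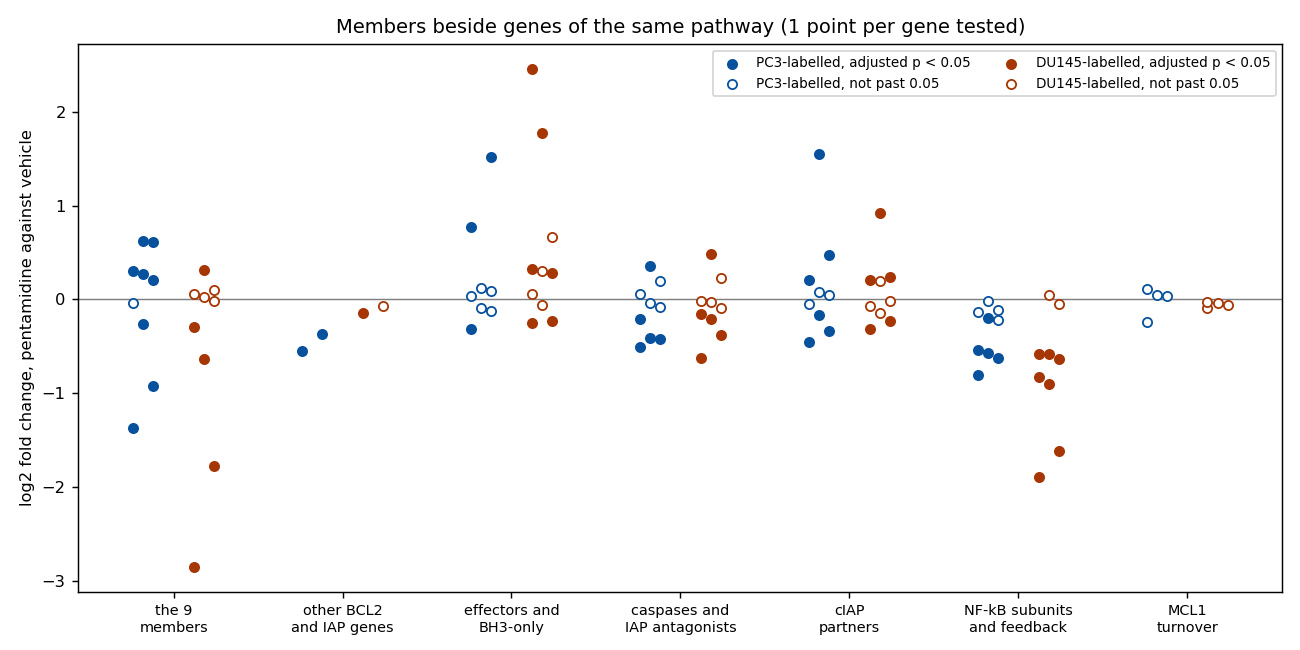
Log2 fold change with pentamidine against vehicle (y axis) for the 9 members and for 6 lists of genes of the same pathway (x axis); each point is 1 gene tested, PC3-labelled in blue and DU145-labelled in brown, filled where the adjusted p was below 0.05. All filled points of the NF-κB list lie below 0, from -0.81 in PC3-labelled and -1.89 in DU145-labelled cells upwards. The effector list reaches 1.52 (BBC3) and 2.46 (HRK, which entered the test only through its treated libraries).

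For the members past the fold threshold, the genes with the most similar pattern over the 12 libraries were picked among 15225 other genes. The measure was Pearson's r of log2 CPM, which compares the shape of the pattern and not the level or the size of the change. The closest to BIRC3 were SLC25A32 (r = 0.984), NFKBIA (0.983) and NUDCD1 (0.979), and the closest to BCL2A1 were SHTN1 (0.977), NFKBIZ (0.975) and NFKB1 (0.960). NFKBIA was at 73.7 ± 6.33, 42.0 ± 1.22, 227 ± 5.93 and 73.7 ± 0.735 CPM in the PC3-labelled vehicle, PC3-labelled pentamidine, DU145-labelled vehicle and DU145-labelled pentamidine groups. Like BIRC3, it was highest in the DU145-labelled vehicle group and lowest in the PC3-labelled pentamidine group. BIRC3 and BCL2A1 had r = 0.933 with each other. Other pairs of members were as close: BCL2A1 and BIRC2 had r = 0.942, and BIRC3 and BIRC6 r = 0.935. BIRC3 and BCL2L1 had r = -0.85. The 12 points form 4 groups and share their libraries, so these values describe the group pattern and carry no test.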

How the data were processed

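The 12 RNA-seq libraries were grouped by their labels (vehicle, or pentamidine at 2.5 μmol/L, 48 hours, 3 per group). According to the paper's methods and the submitters' processing notes, Oligo(dT)-selected RNA was aligned with HISAT2 (2.1.0) to GRCh38 and tested with DESeq (1.18.1). The counting program, annotation and use of strand are not given in the sources used here. The authors deposited raw counts per gene, which were used unchanged. A table named for FPKM and the authors' comparison tables (fold changes, p-values) were not used. Of 33639 lines, 44 without an identifier were left out, and duplicate entries with the same counts were merged, leaving 32077 genes. A spreadsheet had turned 24 names into dates.

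Each comparison used edgeR 4.0.16 (R 4.3.3): quasi-likelihood test, TMM, filterByExpr (minimum count 10), and Benjamini-Hochberg adjustment over all genes tested. A gene passed at an adjusted p below 0.05 and was called with an absolute log2 fold change above 1 as well. SE is the fold change over the square root of F. CPM was scaled by TMM over the 12 libraries, and exon lengths are those of GENCODE 29, in which the 9 members had the same positions. All replicate pairs differed by more than sampling noise. The spread was largest in the PC3-labelled vehicle group, with a mean chi-square per pair of 3.64 to 7.30, against 1.72 to 3.13 in the other groups. That group enters every comparison except the one within DU145-labelled cells. Precision estimates cover these libraries only.

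All 9 members were named. Per pathway list and labelled line, at most the 2 highest and 2 lowest genes that passed were named. For each member past the fold threshold, the 3 genes most similar in pattern were named as well. The members and lists were chosen with earlier results of these data known. Scripts were tested on simulated counts. Alternatives were RLE, library size alone or without 13 mitochondrial mRNAs, no filter, at least 10 counts in every library, DESeq2 1.42.0, limma 3.58.1 (log2 CPM, prior count 2), a replicate block, an adjusted p below 0.01, all 12 libraries in one fit, and each library left out. CD3E, KDR and BIRC8 were not analysed here, and a few other genes of the lists are not reported here.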

Additional observations from a re-analysis of the deposited data

Results flagged for a closer look

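The change with pentamidine differed between the labelled lines, by the interaction term of the edgeR model, for 6 members. The change in DU145-labelled minus that in PC3-labelled cells was -1.92 for BCL2A1, -0.59 for BIRC2, -0.52 for BCL2L2, -0.41 for BIRC3, -0.31 for BCL2L1 and -0.24 for MCL1 on the log2 scale. BCL2A1 had only 16 to 53 counts in the PC3-labelled libraries, and the CTNNA1 level went against the PC3 label.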

How the results depend on the processing

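The 9 members gave 36 results over the 4 comparisons. Of these, 31 kept their side of the threshold under every alternative run, 4 lost it under some (BCL2, BCL2A1 and XIAP in PC3-labelled cells and the difference for BCL2L1), 1 gained it (MCL1 in DU145-labelled cells), and 0 reversed while past the threshold. In 5 results that did not pass, the sign changed under some alternative: BCL2, BCL2L2 and XIAP in DU145-labelled cells, BCL2L2 between vehicle groups and the difference for BIRC6. In PC3-labelled cells 8 members passed, and 5 at an adjusted p below 0.01, since BCL2, BCL2A1 and XIAP lay between the thresholds. Leaving out 1 library gave 5 to 8 there, 5 without pentamidine replicate 3, where the cause was not tested. With the replicate block, 7 members passed in PC3-labelled cells, 5 in DU145-labelled cells, 8 between the vehicle groups and 6 for the difference, and XIAP lost its call in PC3-labelled cells (adjusted p = 0.0588). Deviations of same-numbered libraries had correlations from -0.073 to 0.039, and those of differently numbered libraries from -0.081 to 0.085. These values show no common deviation, but cannot tell whether same-numbered libraries shared a culture or batch. BCL2A1 had 16 to 18 counts per treated PC3-labelled library and 21 to 53 per vehicle library, and its log2 fold change there had a 95% interval from -1.64 to -0.21.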
